A study of Mus musculus with 2 samples.

Results

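The cytosolic ribosomal protein genes were described in single bone marrow cells of the Fucci mouse, which carries a reporter of the cell cycle. Members were the protein-coding genes named Rps, Rpl, Rplp or Rpsa by a fixed pattern of symbols. The pattern found 83 members, 32 of the small and 51 of the large subunit, among 53273 annotated genes in the deposited tables, and all 83 had a row. The mice were C57BL/6 and 8 weeks old. In Fucci cells the orange protein mKO2, fused to a piece of Cdt1, accumulates in G0 and G1, and the green protein mAG, fused to a piece of geminin, in S, G2 and M. Cells of 4 gates were profiled, 48 in each: the mKO2high and mKO2low gates, of high and low orange signal, in the second library, and the mKO2neg gate, without orange signal, and the mAG+ gate, with green signal, in the first. Single-cell cDNA was made with a modified Smart-seq2 protocol that keeps the 3′ ends of transcripts. Other surface markers of the sort and the number of mice behind a gate are not stated in the labels, so each gate was treated as 1 sample and no test was run. The intervals below are 95% intervals for counting error only, since reads are not independent molecules and the spread between animals is unknown.

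A ribosome has a small subunit, which reads the codons of the mRNA, and a large subunit, which joins the amino acids. Each subunit holds most of its proteins in single copies around ribosomal RNA, so the genes of these proteins are transcribed in parallel and at high levels in most cells. Their mRNAs begin with a run of pyrimidines, the 5′ terminal oligopyrimidine (TOP) motif, through which mTORC1 and the protein LARP1 regulate their translation. In blood, loss of a copy of certain ribosomal protein genes causes Diamond-Blackfan anaemia, and blood stem cells are known for a low rate of protein synthesis.

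The gene names of the deposited rows were displaced by 1 gene against the counts. Each gene was therefore read from the row of the gene that precedes it in the GENCODE M21 order. Read this way the members held 1401333 of 7037513 counts, or 19.9%. Read under their own labels they held 0.167%, and 0.148% and 0.0796% for a shift of 2 genes in either direction. Of the 83 members, 38 were read from a row whose deposited label is a non-coding gene or a pseudogene. For example, the counts of Rps27 stood in the row labelled Gm24185. The mKO2high, mKO2low, mKO2neg and mAG+ gates totalled 934036, 1703263, 1608630 and 2791584 counts. Per-cell values use the 44, 48, 43 and 45 cells with at least 1000 counts, and no cells with a count have identical counts. The 25 genes of the G2 and M list summed to 216, 386, 1470 and 12296 CPM, a gene's counts scaled to a common gate total, in the same order of gates. Markers of blood stem and progenitor cells, 11 of 11 counted, summed to 2593, 2368, 2140 and 1755 CPM, and of 5 T cell genes Cd3e, Cd3g, Trbc1 and Trbc2 had no count, while Cd3d had 24 counts in 1 mKO2low cell, 1 in mKO2neg and 3 in mAG+.

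Several members have a paralog whose symbol is theirs followed by l or l1, and the results below turn on how far the members of such a pair can be told apart. Rps27 (chr3:90212522-90213651, minus strand, GRCm38) and Rps27l (chr9:66946086-66949516, plus strand) encode small subunit proteins of 84 residues each, 96.4% identical. Their coding sequences of 252 bases differ at 60 bases, shown in capitals as given by the GENCODE M21 transcripts.
Rps27: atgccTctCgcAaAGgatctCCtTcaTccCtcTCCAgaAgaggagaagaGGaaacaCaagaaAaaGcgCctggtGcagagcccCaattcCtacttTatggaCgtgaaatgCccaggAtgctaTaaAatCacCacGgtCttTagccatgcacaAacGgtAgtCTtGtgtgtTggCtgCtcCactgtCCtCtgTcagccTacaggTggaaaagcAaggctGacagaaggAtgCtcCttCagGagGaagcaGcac
Rps27l: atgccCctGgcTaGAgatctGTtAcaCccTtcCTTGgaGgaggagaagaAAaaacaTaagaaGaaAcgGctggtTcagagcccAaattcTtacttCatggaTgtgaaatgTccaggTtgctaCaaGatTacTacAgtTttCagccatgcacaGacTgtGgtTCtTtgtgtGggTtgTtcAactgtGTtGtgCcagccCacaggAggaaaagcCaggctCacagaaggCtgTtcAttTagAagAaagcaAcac
The differences are spread along the whole coding sequence. Rpl22 and Rpl22l1 are further apart, at 73.8% of residues, as are Rpl3 and Rpl3l at 77.1% and Rpl7 and Rpl7l1 at 44.7%. Rpl10 and Rpl10l share 98.6% and Rpl39 and Rpl39l 94.1%.

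The start of transcription is shown for a few members because a pyrimidine run there is a sequence feature known for the family, and the choice of members did not use it. The windows run from 15 bases before to 15 bases from the annotated start, 5′ to 3′, from RefSeq on GRCm38.p6. Capitals mark a run of at least 6 C or T whose first base lies within 20 bases of the start.
Rps27 (chr3:90213634-90213663, minus): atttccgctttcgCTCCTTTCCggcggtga
Rps6 (chr4:86857353-86857382, minus): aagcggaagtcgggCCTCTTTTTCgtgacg
Rps18 (chr17:33955651-33955680, minus): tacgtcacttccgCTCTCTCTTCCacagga
Rplp2 (chr7:141447636-141447665, plus): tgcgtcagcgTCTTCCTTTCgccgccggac
Rpl38 (chr11:114668565-114668594, plus): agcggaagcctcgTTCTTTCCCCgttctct
Rpl13a (chr7:45128731-45128760, minus): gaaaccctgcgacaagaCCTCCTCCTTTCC
Rpl22l1 (chr3:28805493-28805522, plus): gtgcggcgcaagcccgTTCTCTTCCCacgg
Rpl22 (chr4:152325711-152325740, plus): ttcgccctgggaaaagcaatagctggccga
Such a run was found in 44 of the 63 members with a window (69.8%) and in 7042 of 16522 protein-coding genes with a window (42.6%). The run of Rpl13a goes on past the window shown. A run can also end before the annotated start, as in Rpl13, and is then not part of the annotated mRNA. Rpl22 is the member shown without a run, and its other window had none either. In the whole windows of 300 bases, on both strands, the letters CCGGAAG occurred in 26 members (41.3%, against 13.4% of the protein-coding genes), AAGATGGC in 6 (9.52%, against 3.64%) and TATAAA in 7 (11.1%, against 14.3%). These are matches of letters in the annotated windows and were not tied to any measured binding.

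Nearly all members were counted in nearly all cells. At least 1 count was found for 81 members, 78 had at least 1000 counts over all cells, and 76 were counted in at least 150 of the 192 cells. Of the 20 protein-coding genes with the highest CPM, members made up 13, 16, 18 and 15 from mKO2high to mAG+, and of the top 100 they made up 61 to 64. In cells thinned to 5000 counts, the median number of members counted was 76 in mKO2high and mKO2neg and 77 in mKO2low and mAG+. By CPM alone, averaged over the gates, the leading members included Rpl13, Rps29, Rps27, Rplp1, Rps19, Rpl32, Rps3, Rps14 and Rps18. Per kilobase of annotated exon, Rplp1 led with a mean of 9962 CPM per kb, before Rps29 at 8918 and Rpl36 at 8305. Of the 10 leading members, 5 were shared by both orders. The protocol enriched 3′ ends, so a count need not grow with length, and over the 83 members the Spearman correlation of CPM with exon length was 0.08, a description across genes. Division by length then mainly lifts short genes: Rpl36, with 383 bases of exon, was at rank 21 by CPM and 3 per kilobase, and Rps19, with 4685 bases, at rank 6 and 45. Neither order is a measured order of transcripts per cell. The order of the members was close to the same in each gate: over the 79 members with at least 10 counts in every gate, the Pearson correlation of log2 CPM between gates lay between 0.965 and 0.992. Members, not samples, are the points of this value, and each gate's points share its depth.

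**Figure D1:**
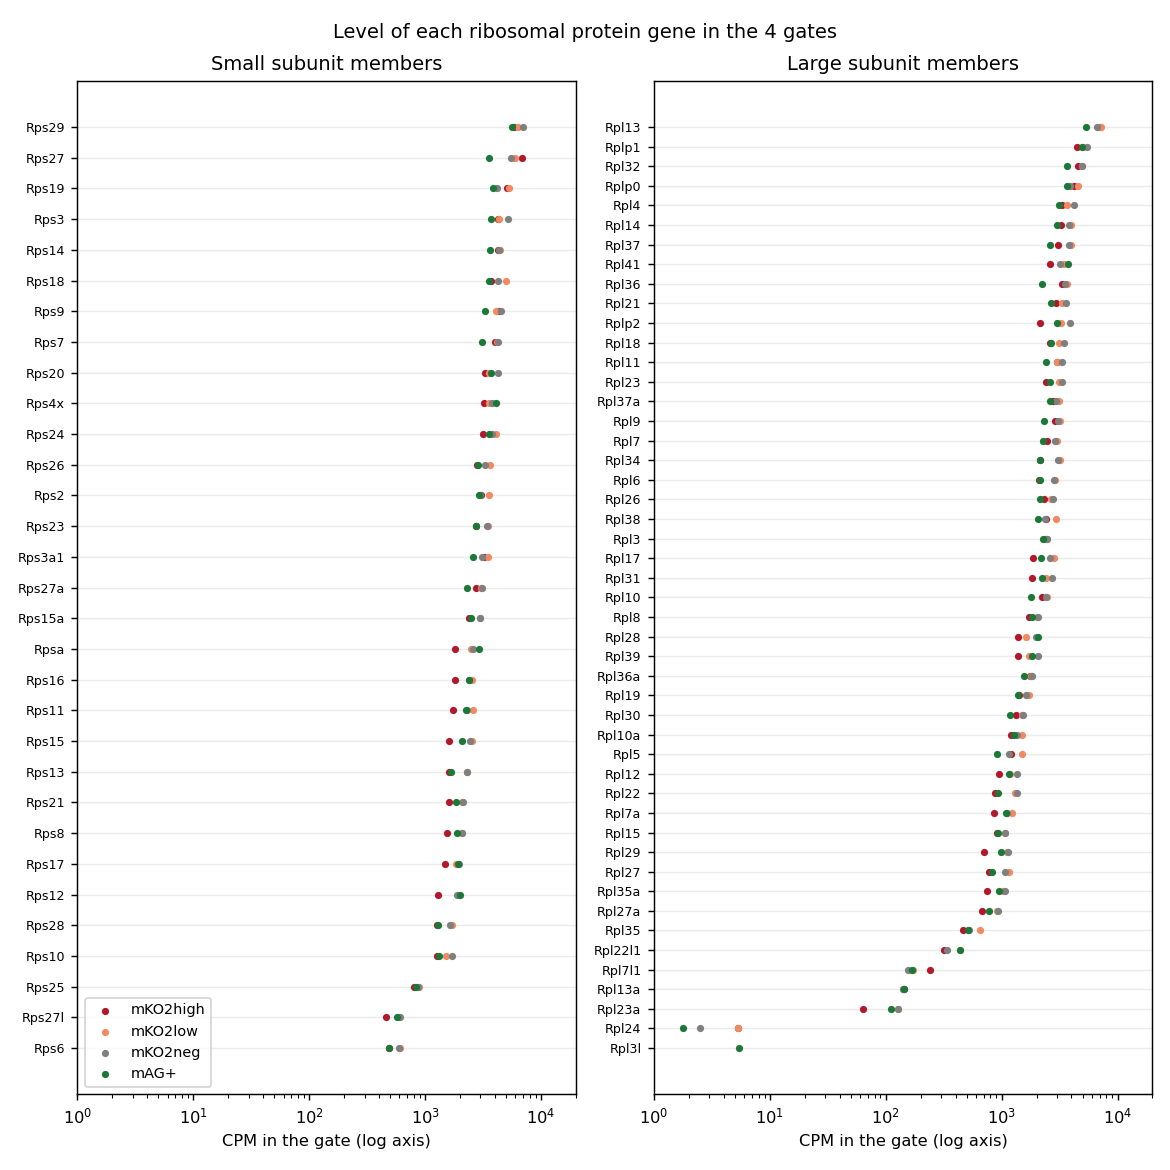
CPM of each ribosomal protein gene in the 4 gates, on a log axis, for small (left) and large subunit members (right), sorted by mean CPM; each point is 1 gate. Most members drawn lie between 458 and 7166 CPM and the gates differ less than the members do, while Rpl22l1, Rpl7l1, Rpl13a, Rpl23a, Rpl24 and Rpl3l are lower. A gate without a count is not drawn, Rpl10l and Rpl39l, with no count in any gate, are left out, and 79 members are shown.

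Per kilobase of exon, the lowest counted members were Rpl3l at a mean of 0.818 CPM per kb, Rpl24 at 3.62, Rpl7l1 at 52.4, Rpl13a at 67.3 and Rpl23a at 127. Rpl24, of the bridge between the subunits, had 23 counts in 9 cells, with 5.35, 5.28, 2.49 and 1.79 CPM in mKO2high, mKO2low, mKO2neg and mAG+. On the same strand, 47.0% of its exon bases are shared with the annotated gene Gm28037. Rpl13a, a large subunit protein also known from translational silencing in inflammation, had 143, 140, 140 and 145 CPM, and 35.4% of its exon bases are shared with other genes on the same strand. Per cell its level was not flat, with medians of 15.5, 179, 80.9 and 130 CPM. It was counted in 23, 37, 24 and 40 cells, and 33.6% of its mKO2neg counts lay in 1 cell. Rpl23a, at the exit of the peptide tunnel, had 63.2, 127, 127 and 111 CPM, and 59.7% of its exon bases lie opposite a gene on the other strand. For Rpl35 this share was larger, at 66.2%, with 465, 654, 523 and 514 CPM. Neither the strand of the reads nor the treatment of reads in overlapping genes is given in the sources used here, and the part of the overlaps in these low values was not tested. Copies are a further limit. For 77 members another annotated gene, mostly a pseudogene, was at least 95% identical over at least 80% of the coding sequence, with a median of 5 such copies and up to 57, so reads of a member and its copies could be divided among them. The Spearman correlation of CPM with the number of copies was -0.06 over the 83 members.

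The share of all counts that lay in ribosomal protein genes was highest in the middle gates. It was 18.6% in mKO2high (exact Clopper-Pearson interval 18.49 to 18.64), 21.8% in mKO2low (21.78 to 21.91), 21.8% in mKO2neg (21.69 to 21.82) and 18.1% in mAG+ (18.08 to 18.17). Single cells spread widely within each gate. The lowest, median and highest shares were 6.94%, 19.2% and 25.9% in mKO2high, 13.5%, 22% and 28.2% in mKO2low, 12%, 22% and 28.4% in mKO2neg, and 5.4%, 18% and 22.7% in mAG+. The ranges of all gates overlapped, and the middle 50% of cells ran from 16.7 to 22.8% in mKO2high, 19.5 to 23.9% in mKO2low, 19.6 to 24.7% in mKO2neg and 16.6 to 20.9% in mAG+. Depth differed between the gates, with median counts per cell of 14510.5, 26851.5, 24633 and 45177 in the same order. In cells thinned to 5000 counts the median shares were 19.3%, 21.9%, 21.9% and 18.3%.

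**Figure D2:**
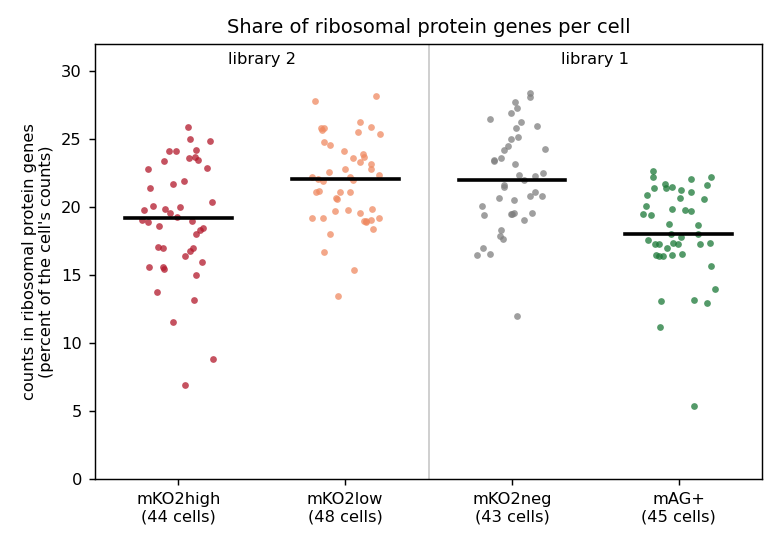
Share of each cell's counts in ribosomal protein genes, in percent, for cells with at least 1000 counts; each point is 1 cell, bars are medians, and the vertical line separates the libraries. Medians are 19.2 and 22% in mKO2high and mKO2low and 22 and 18% in mKO2neg and mAG+, with overlapping ranges.

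Both subunits followed this order. Small subunit members held 8.56%, 9.96%, 9.84% and 8.43% of the counts in mKO2high, mKO2low, mKO2neg and mAG+, and large subunit members 10%, 11.9%, 11.9% and 9.69%. The large over small ratio stayed between 1.15 in mAG+ and 1.21 in mKO2neg. Across cells thinned to 5000 counts the small and large subunit shares had Spearman correlations of 0.90 over 39 mKO2high cells, 0.80 over 48 mKO2low, 0.87 over 43 mKO2neg and 0.91 over 45 mAG+ cells, a description of cells that share a library and a gate. Of the 79 members with at least 100 counts, 58 had higher CPM in both mKO2low and mKO2neg than in both mKO2high and mAG+. The same order was found for 14.5% of the 7616 protein-coding genes with at least 100 counts. The highest CPM was in mKO2low for 38 of the 79 members, in mKO2neg for 32, in mAG+ for 7 and in mKO2high for 2, and the lowest in mKO2high for 44 and in mAG+ for 33. Across the libraries a gate cannot be told apart from its library. Within each library a gate cannot be told apart from the cell's column number, since mKO2high and mKO2neg hold the cells numbered 1 to 48 and mKO2low and mAG+ those numbered 49 to 96. The labels do not say what the number stands for, and 3 numbers, 7, 23 and 34, had under 1000 counts in both libraries.

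In mKO2low against mKO2high, within the second library, ribosomal protein genes were higher in mKO2low almost throughout. Of the 80 members with at least 10 counts over both gates, 75 were higher in mKO2low, where 51.5% of the 9906 protein-coding genes that passed this filter were higher. The median log2 ratio of CPM was 0.30, with quartiles of 0.14 and 0.42, against 0.03 (-0.58 to 0.72) over all protein-coding genes. Among the 241 other genes with at least 1000 counts, which are closer to the members in depth, the median was -0.05. The differences were small in size: 5 members were at least 1.5-fold higher and 0 at least 1.5-fold lower, while 28.2% and 24.8% of all genes passed these folds, most of them with few counts. Small subunit members had a median of 0.31 and large subunit members of 0.29.

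Among the members past 1.5-fold were Rpl23a, Rpl29, Rps15 and Rplp2. Rpl29, of the large subunit surface, had 698 CPM in mKO2high and 1116 in mKO2low, a log2 ratio of 0.68 (0.55 to 0.81), or 0.54 in equally weighted cells. Rps15, near the decoding site, had 1611 and 2513 CPM, or 0.64 (0.56 to 0.73), and 0.38 when each cell had the same weight. Rplp2, of the stalk that recruits elongation factors, had 2125 and 3237 CPM, or 0.61 (0.53 to 0.68), which was 0.54 when the deepest cells were left out. For Rpl23a, with 59 counts in mKO2high, the ratio was 1.00 (0.59 to 1.45), 0.58 with equal weight and 0.56 in thinned cells. None of these 4 members stayed past 1.5-fold under every alternative.

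The members that were not higher in mKO2low were few. Rps27 had 6884 CPM in mKO2high and 6021 in mKO2low, a log2 ratio of -0.19 (-0.24 to -0.15) that was 0.01 in thinned cells, so the sign was not the same at equal depth. Rps9 was at -0.09 (-0.15 to -0.03) and Rpl13a at -0.04 (-0.35 to 0.28). The per-cell median of Rpl13a was 15.5 CPM in mKO2high and 179 in mKO2low. The ratio of Rpl7l1 was -0.50 (-0.76 to -0.24), and 0.09 when cells were weighted equally. Rpl24 was at -0.02, on 14 counts. Rpl13, Rpl11, Rps3, Rps19 and Rps14, lay between 0.01 and 0.07, and Rps19 changed sign in thinned cells.

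In mAG+ against mKO2neg, within the first library, ribosomal protein genes were lower in mAG+. Of 80 measured members 10 were higher in mAG+, where 52.9% of 10746 protein-coding genes were higher. The median log2 ratio was -0.23, with quartiles of -0.37 and -0.10, against 0.06 (-0.53 to 0.77) over all protein-coding genes and 0.02 over the 568 other genes with at least 1000 counts. At least 1.5-fold lower were 2 members, Rpl36 and Rps27, and 1 was at least 1.5-fold higher, Rpl3l, beside 23.5% and 30.3% of all genes. Small subunit members had a median of -0.22 and large subunit members of -0.25.

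Rpl36, a small protein of the large subunit, had 3514 CPM in mKO2neg and 2250 in mAG+, a log2 ratio of -0.64 (-0.70 to -0.59). Rps27 had 5472 and 3550 CPM, or -0.62 (-0.67 to -0.58). Rpl37 at -0.56 (-0.61 to -0.51), Rpl22 at -0.52 (-0.61 to -0.44) and Rpl34 at -0.52 (-0.57 to -0.46) followed. Of these 5 members 4 are of the large subunit, as are 48 of all 80 measured members.

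The members higher in mAG+ were led by Rpl22l1, at 335 CPM in mKO2neg and 435 in mAG+, a log2 ratio of 0.38 (0.23 to 0.53), which was 0.66 in thinned cells. Rpl41, the shortest ribosomal protein, had 3198 and 3729 CPM, or 0.22 (0.17 to 0.27). Rpsa, also known as the laminin receptor, had 2570 and 2925 CPM, or 0.19 (0.13 to 0.24). For Rps4x, encoded on the X chromosome, the ratio was 0.11 (0.06 to 0.15), while equally weighted cells gave -0.05 and thinned cells -0.06. Rpl28 was at 0.06 and Rps12 at 0.08, and both changed sign in thinned cells. Rpl7l1 and Rpl13a had intervals that included 0. Rpl3l, the paralog of Rpl3 known from skeletal and heart muscle, had 15 counts in 4 mAG+ cells, 53.3% of them in 1 cell, and none in mKO2neg. Against a floor of 3 counts in the gate this is at least 2.88-fold higher, and the median of the members was -0.23 with this bound as well.

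**Figure D3:**
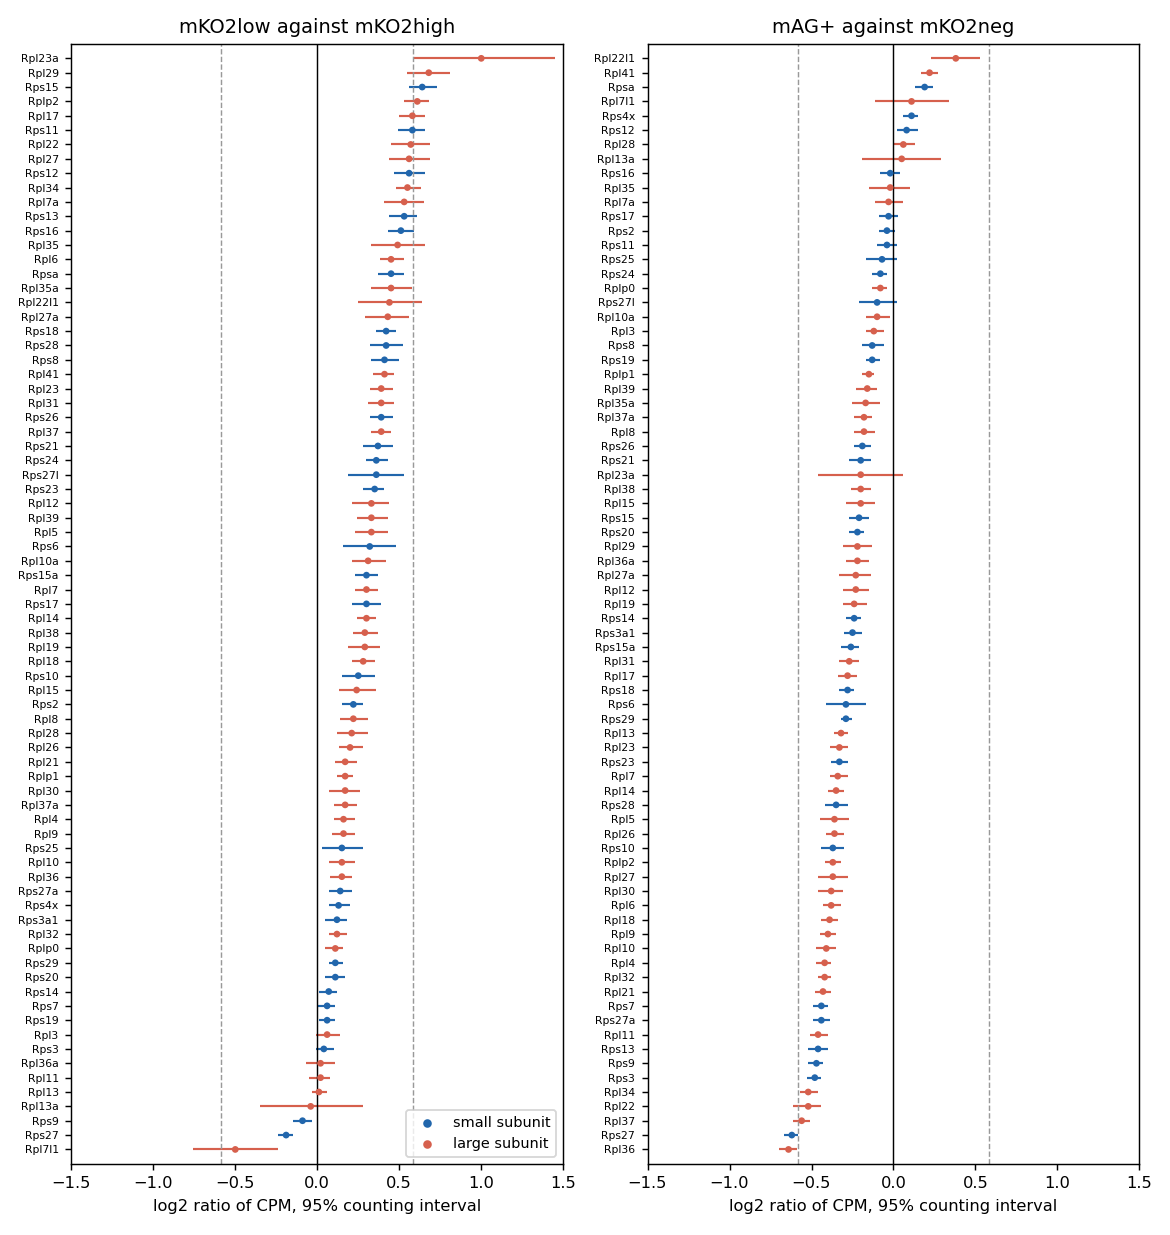
Log2 ratio of CPM (point) with its 95% counting interval (line) for each measured member in the comparisons within a library; blue is small and red large subunit, and dashed lines mark 1.5-fold. Of the measured members, 75 of 80 are above 0 in mKO2low against mKO2high and 10 of 80 in mAG+ against mKO2neg; 77 members are drawn in each panel, without Rpl3l and Rpl24, which have few counts.

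Gates were also compared across the libraries, and these comparisons share their gates with those above, so they add no independent evidence. In mKO2neg against mKO2low, 37 of 80 members were higher in mKO2neg, beside 50.4% of 10246 genes, with a median log2 ratio of -0.01. No member was at least 1.5-fold higher and 1, Rpl24 on 13 counts, at least 1.5-fold lower, beside 24.9% and 25.1% of all genes. The largest differences among well counted members were Rpl22l1 at -0.38 (-0.55 to -0.22), Rpl5 at -0.37 (-0.46 to -0.29) and Rps19 at -0.35 (-0.40 to -0.31) on the lower side, and Rpl28 at 0.29 (0.22 to 0.37), Rps20 at 0.28 (0.23 to 0.33) and Rplp2 at 0.26 (0.21 to 0.31) on the higher. Without the deepest cell of each gate, and in thinned cells, Rps20 was at 0.05. In mAG+ against mKO2high, 46 of 81 members were higher in mAG+, beside 53.4% of 10570 genes, with a median of 0.03. Here 5 members were at least 1.5-fold higher, among them Rpl3l, Rpl23a, Rpsa and Rps12, and 2 at least 1.5-fold lower, Rps27 and Rpl24, beside 34.4% and 26.6% of all genes. Rpl24 had only 5 counts in each of these gates, and its interval, from -3.7 to 0.54, included 0. Rpsa was at 0.69 (0.62 to 0.77), or 0.43 with equal weight, and Rps12 at 0.62 (0.53 to 0.71). Rpl23a was at 0.80 (0.40 to 1.24), or 0.28 with equal weight. Rps27 was at -0.96, with an interval from -1 to -0.91.

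Of the 79 members with at least 100 counts, the 2 with their highest CPM in mKO2high were Rps27, of the small subunit, and Rpl7l1. For neither did mKO2high stay above mKO2low under every alternative, as the ratios of 0.01 for Rps27 in thinned cells and 0.09 for Rpl7l1 in equally weighted cells show. From mKO2high to mAG+, Rps27 had 6884, 6021, 5472 and 3550 CPM. Per cell, the medians were 6494, 6309, 5556 and 3716 CPM, and the quartiles of mAG+ cells, 2929 and 4131, lay below the lower quartiles of the other gates, 5020, 5564 and 4441. Rps19, the gene most often mutated in Diamond-Blackfan anaemia, had 5119, 5327, 4169 and 3815 CPM, higher in both gates of the second library. Rps14, lost in the 5q- syndrome, had 4217, 4413, 4319 and 3651 CPM. Rps3, which lines the mRNA entry, was highest in mKO2neg, with 4247, 4374, 5219 and 3731 CPM. Rps29, a zinc-binding protein of the small subunit head, had 5828, 6300, 6924 and 5669 CPM. Rps27a, made as a fusion with ubiquitin, had 2747, 3028, 3120 and 2300 CPM. Rps6, the substrate of the S6 kinases, had 488, 609, 596 and 489 CPM, ranked 70 of 81 per kilobase and has 11 near-identical copies. Rpsa showed another order, lowest in mKO2high and highest in mAG+, with 1807, 2466, 2570 and 2925 CPM.

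Among large subunit members the stalk proteins differed in their order of gates. Rplp0, their anchor, had 4188, 4515, 3893 and 3680 CPM in mKO2high, mKO2low, mKO2neg and mAG+. Rplp1 had 4488, 5054, 5447 and 4896 CPM, and Rplp2 had 2125, 3237, 3880 and 3007. Rplp0 was highest in mKO2low, and Rplp1 and Rplp2 in mKO2neg. Rpl5 and Rpl11, which with the 5S RNA also bind and inhibit MDM2 when ribosome assembly is disturbed, had 1196, 1505, 1162 and 906 CPM and 2983, 3017, 3324 and 2422 CPM. Both were lowest in mAG+. Rpl10, which joins the large subunit late in its maturation, had 2212, 2454, 2390 and 1801 CPM. Rpl38, needed for translation of Hox mRNAs in the mouse embryo, had 2416, 2964, 2378 and 2071 CPM. Rpl13 had 7105, 7166, 6627 and 5311 CPM.

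The paralog pairs differed in their proportions between gates. Rps27 had 15 counts for each count of Rps27l in mKO2high (13.6 to 16.6), 10.2 in mKO2low (9.60 to 10.9), 9.01 in mKO2neg (8.43 to 9.63) and 6.25 in mAG+ (5.92 to 6.59). Rps27l, known as a target of p53, had 458, 588, 607 and 568 CPM, a narrower range of gate CPM than that of Rps27. It was counted in 35 mKO2high cells, and 22.2% of its mKO2high counts lay in 1 cell. Its per-cell medians were 291, 538, 568 and 530 CPM from mKO2high to mAG+, so per cell its range was not narrow. For Rpl22, an RNA-binding large subunit protein that is needed in lymphocyte development and is known to repress its paralog, there were 2.72 counts for each of Rpl22l1 in mKO2high (2.38 to 3.12), 2.97 in mKO2low (2.73 to 3.23), 4.02 in mKO2neg (3.66 to 4.42) and 2.15 in mAG+ (2.01 to 2.30). Rpl22 had 874, 1298, 1346 and 936 CPM, and Rpl22l1 had 321, 437, 335 and 435. Between mKO2neg and mAG+ Rpl22 was lower and Rpl22l1 higher in mAG+. Rpl7 had 10.2 counts for each of Rpl7l1 in mKO2high (8.89 to 11.8), 17.8 in mKO2low, 18.6 in mKO2neg and 13.6 in mAG+ (12.4 to 15). Rpl7l1 itself had 240, 170, 155 and 168 CPM, but 26.8% of its mKO2high counts lay in 1 cell, and its per-cell median was 44.5 CPM in mKO2high and 169 in mKO2low. With equally weighted cells the log2 ratios of mKO2low to mKO2high were 0.09 for Rpl7l1 and 0.19 for Rpl7, so the difference in proportion between these gates was much smaller. Rpl10l, known from the testis, and Rpl39l had 0 counts in every gate, where a count of 0 allows up to 3.21, 1.76, 1.86 and 1.07 CPM, and Rpl3l had 0 in all gates but mAG+. Their partners Rpl10, Rpl39 and Rpl3 had 15117, 12689 and 16697 counts.

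**Figure D4:**
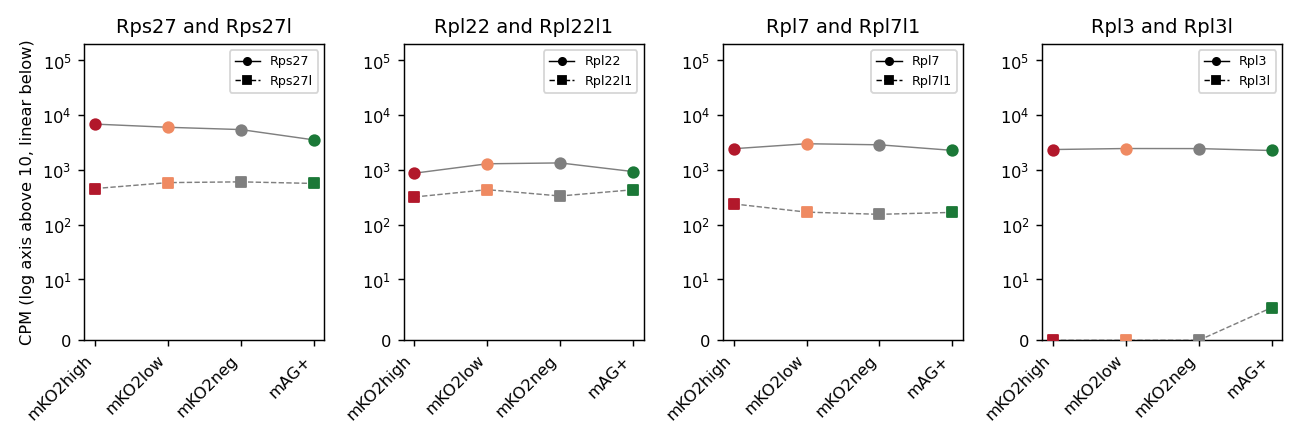
CPM of 4 paralog pairs in the 4 gates, on an axis that is logarithmic above 10 and linear below; circles and solid lines are the member, squares and dashed lines its paralog. Rps27 goes from 6884 to 3550 CPM between mKO2high and mAG+ while the gate CPM of Rps27l stays between 458 and 607. The per-cell medians of Rps27l, from 291 to 568 CPM, are not drawn. Rpl3l has counts in mAG+ only.

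Other genes of the pathway were taken from lists chosen with the members. The 4 genes of the cytosolic ribosome whose symbols fall outside the pattern had medians of 0.15 in mKO2low against mKO2high, 2 of 4 higher, and -0.21 in mAG+ against mKO2neg, 0 of 4 higher. Fau, which encodes a small subunit protein fused to a ubiquitin-like part, had 2528, 2384, 2796 and 2278 CPM, with log2 ratios of -0.08 and -0.30. Rack1, a signalling scaffold on the small subunit, was at 0.57 (0.47 to 0.68) and -0.12 (-0.20 to -0.05), and Rpl36al at 0.38 and -0.62. The 20 other mRNAs with a TOP motif, mostly of translation factors, had 13 higher in mKO2low with a median of 0.29, and 8 of 20 higher in mAG+ with a median of -0.10. Eef1a1, the elongation factor that brings tRNA to the ribosome, was at 0.31 and -0.31, Npm1 at 0.49 and -0.10, Naca at -0.04 and -0.27, and Tpt1 at 0.72 and 0.04. Across cells, the share of these 20 genes and that of the members had Spearman correlations of 0.63, 0.47, 0.56 and 0.68 from mKO2high to mAG+, again as a description of cells of 1 library each.

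Ribosome biogenesis genes were mixed. Of 30 measured genes 18 were higher in mKO2low, with a median of 0.12, and 9 of 28 were higher in mAG+, with a median of -0.27. Ncl, a nucleolar protein, was at 0.51 and 0.16, Nop10 at 0.13 and -0.21, Gnl3 at 1.07 and -0.77 and Nop56 at -0.02 and -0.33. The share of this list and that of the members had Spearman correlations across cells of -0.13, -0.12, 0.03 and 0.21 from mKO2high to mAG+. Of 15 genes of mTORC1 and S6 kinase signalling, 12 were higher in mKO2low, with a median of 0.55 on few counts, and 7 were higher in mAG+, with a median of -0.01. Eif4ebp1, an inhibitor of cap-dependent translation, was at -0.22 and -1.04 and Rheb, an activator of mTORC1, at 0.59 and 0.46. The genes of the mitochondrial ribosome had medians of 0.03, with 38 of 75 higher, and -0.06, with 36 of 75 higher. Mrpl52 was at 0.03 and -0.72 and Mrps14 at -0.95 and 0.33. Of 295 ribosomal protein pseudogenes 48 were measured in mKO2low against mKO2high, 42 of them higher, with a median of 0.78 and summed levels of 1771 CPM in mKO2high and 2959 in mKO2low. In mAG+ against mKO2neg 21 of 64 were higher, with a median of -0.19.

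**Figure D5:**
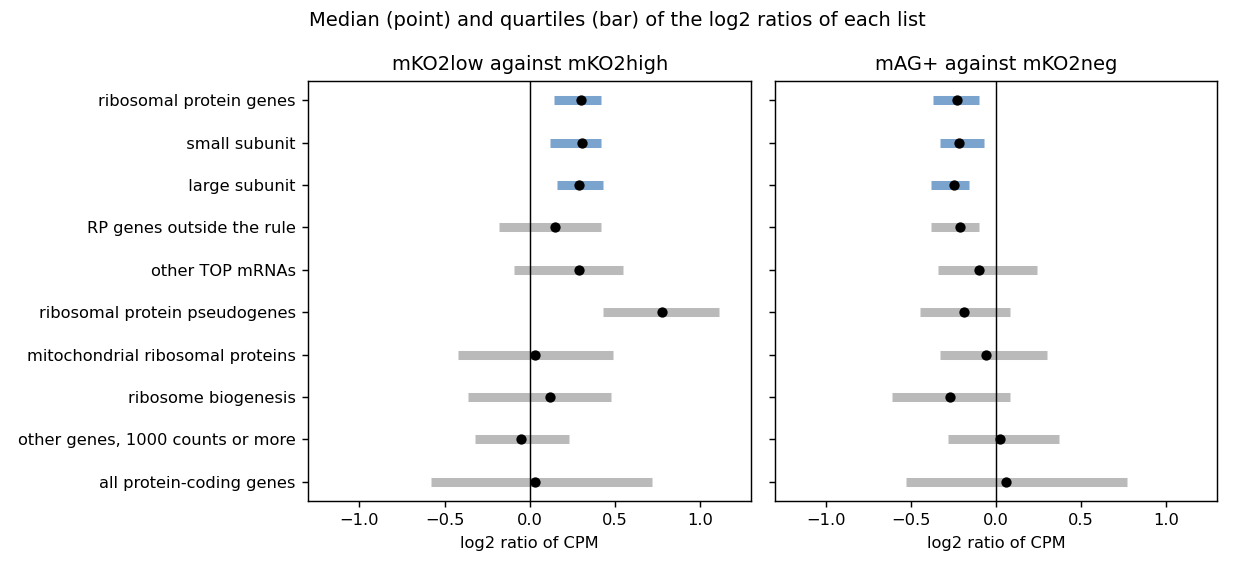
Median (point) and quartiles (bar) of the log2 ratio of CPM for the ribosomal protein genes, blue, and other lists, grey, in the comparisons within a library. The members have medians of 0.30 and -0.23, the other genes with at least 1000 counts -0.05 and 0.02.

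The cells of the gates also differed in other genes. MHC class II and dendritic markers, 3 of 4 counted in mKO2high with H2-Ab1 at 0, summed to 852, 210, 139 and 79.9 CPM from mKO2high to mAG+. Cd74 (611, 144, 59.7 and 28.3) and H2-Aa (234, 56.9, 36.7 and 28.3) made up most of this sum. Flt3, at 6.42, 8.81, 39.2 and 23.3 CPM, was lowest in mKO2high. Without the 21 mKO2high and 25 mKO2low cells that had a count of Cd74 or H2-Aa, the median over the members was 0.32, with 71 of 80 higher in mKO2low. B cell markers, 8 of 8 counted in mAG+ and 5 of 8 in mKO2neg, summed to 283 CPM in mAG+ and 109 in mKO2neg. Granulocyte and monocyte markers summed to 1477, 1517, 1442 and 951 CPM from mKO2high to mAG+, with Ly6g at 0 throughout. Lyz2 (1058 CPM in mKO2high and 590 in mAG+) and Prtn3 (354 and 168) made up most of this sum, while S100a8 (52.5 and 117) and S100a9 (10.7 and 69.9) were higher in mAG+. Megakaryocyte markers summed to 380, 179, 213 and 105 CPM from mKO2high to mAG+, with Pf4 at 187, 52.8, 42.9 and 16.5. The other genes of this list had other orders of gates. Gp9 was highest in mKO2neg (99.6, 66.3, 138 and 39) and Itga2b lowest there (93.1, 46.4, 31.7 and 48.4). Ppbp had no count in mKO2high and mKO2neg, 13.5 CPM in mKO2low and 1.43 in mAG+. The part of these markers in the differences between members' levels was not tested. Across the cells of a gate, the Spearman correlations of the member share with the share of G2 and M genes were -0.11, -0.19, 0.09 and -0.37 from mKO2high to mAG+. With the share of S phase genes they were 0.09, -0.32, 0.20 and -0.04, with that of mitochondrially encoded genes 0.36, 0.44, -0.10 and 0.12, and with depth -0.10, -0.14, -0.10 and -0.18. These describe 43 to 48 cells a gate that share a library, and shares of 1 total are not independent.

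The ratios of members with and without a pyrimidine run at the start overlapped. In mKO2low against mKO2high the 43 measured members with a run had a median of 0.33 and the 17 without a run 0.15, with overlapping quartiles of 0.25 to 0.44 and 0.06 to 0.41. In mAG+ against mKO2neg the medians were -0.23 and -0.25. Rpl22l1, with a run, and Rpl22, without one, whose starts are shown above, were at 0.44 and 0.57 in the first comparison and at 0.38 and -0.52 in the second.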

How the data were processed

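Both deposited tables gave raw counts, as whole numbers for each gene row in each of 192 cells, per the file headers, and a deposited cell table gave the gates. The submitters' processing notes list HISAT2, HTSeq 0.11.3, Seurat and mm10, with no word on how each was used. Annotation release, strand, filters and molecular identifiers were not stated in those sources. Of 53378 rows, 105 were not in GENCODE M21 and held 0.222% of the counts.

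Counts were summed per gate and divided by the gate total as CPM. A prior count of 1, in proportion to the totals, was added for log2 ratios, and genes with at least 10 counts over both gates were used. Ratios have exact conditional binomial 95% intervals. A fold of 1.5, or 0.58 on the log2 scale, described size. The calculation was tested on simulated data. Lists have no test and are set beside all protein-coding genes. Named members were the 10 highest and 5 lowest in CPM, the 5 with the largest ratio each way per comparison with counts in at least 12 cells, like paralogs with their partners, members of known function, and those without a count. Members and lists were chosen with earlier results of these data known. Copies were found with BLAST 2.17.0. Alternatives used TMM factors (edgeR 4.0.16) and size factors (DESeq2 1.42.0) among others. Python 3.11.15, pandas 2.3.3 and scipy 1.17.1 were used. Doublets were not called. Some members and genes of the lists that the rule names are counted in the totals and are not reported here by name or drawn.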

Additional observations from a re-analysis of the deposited data

How the results depend on the processing

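Each median was recomputed under 12 alternatives and under 2 added after seeing the data, which left out cells with B cell or MHC class II counts. No paired analysis was possible because each gate is 1 sample. Reading each gene under its own deposited label turned the medians to -0.41 for mKO2low against mKO2high and to 0.20 for mAG+ against mKO2neg, moved mKO2neg against mKO2low to -0.11, and left shares of 0.141%, 0.137%, 0.118% and 0.223% in mKO2high, mKO2low, mKO2neg and mAG+; these rows hold other genes' counts. Thinned cells gave 0.02 for mKO2neg against mKO2low. Otherwise the medians of the comparisons within a library ranged from 0.21 to 0.33 and from -0.27 to -0.21. Shares moved past their narrow intervals as follows, in the same order of gates. The values are rounded, so some of these small moves do not show in the digits given. Without mitochondrial counts they were 19.3%, 22.6%, 22.4% and 18.8%, with the preceding gene among all annotated genes 17.9%, 21%, 20.9% and 17.4%, and without like paralogs 18.5%, 21.7%, 21.6% and 18%. TMM factors gave 18.3% in mKO2high, 22.1% in mKO2low and 18.2% in mAG+, and size factors 18.7% in mKO2high, 21.8% in mKO2low and 21.7% in mKO2neg. Equal weight for each cell gave 19.1% in mKO2high and 22.1% in mKO2neg, thinning 19.1% and 22.2%, the filter on gene rows and mitochondrial share 18.7% in mKO2high and 18.2% in mAG+, and leaving out the deepest cell 21.6% in mKO2low and 17.8% in mAG+. Without cells with Cd74 or H2-Aa counts the shares were 19%, 22.4%, 22% and 18.3%, and without cells with B cell counts 18.5% in mAG+. Of the members named for a comparison with an interval off 0, the sign changed for Rpl7l1 (0.09, equal weight) and Rps27 (0.01, thinned) in mKO2low against mKO2high, and for Rps4x in mAG+ against mKO2neg (-0.05, equal weight, and -0.06, thinned). Over all members with an interval off 0, thinning changed the sign of 4 of 73 in mKO2low against mKO2high. It did so for 6 of 68 in mAG+ against mKO2neg, 10 of 46 in mKO2neg against mKO2low and 4 of 58 in mAG+ against mKO2high. Rps20 changed sign in mAG+ against mKO2neg with equal weight, in thinned cells and without the deepest cells. The cause of these changes was not tested. Intervals cover counting error only, and no value here has a check in a second animal.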
